A study of Mus musculus with 12 samples.

Results

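The 7 marker genes of Schwann cells and other peripheral glia, Sox10, S100b, Mbp, Erbb3, Ngfr, Cdh19 and Foxd3, were followed in cultured fibroblast-like synoviocytes of mice, which are connective tissue cells lining the joint. The 7 genes were taken by symbol from a read-count table of 36875 gene symbols, and all 7 were found. Of them, 6 had enough reads to be tested, and Mbp did not. The series holds 12 poly(A) RNA libraries in 3 groups of 4. Homeostasis synoviocytes, which the sample descriptions call WT, came from animals that drank 5% sucrose water for 3 weeks. Inflammation synoviocytes (DOX ON) came from animals given doxycycline at 1 mg/ml in the same sucrose water for 3 weeks, and resolution synoviocytes (DOX OFF) from animals in which that course was then stopped. The protocol shared by all samples names TNF-induced inflammatory arthritis, so the labels leave unsaid whether the WT animals carried the same alleles as the others. The sequence that doxycycline switched on, its promoter, the age of the animals, the time from withdrawal to harvest and the passage of the cultures are not given in these sources.

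Schwann cells wrap and support the axons of peripheral nerves and arise from the neural crest. Sox10 is the transcription factor that holds glial identity from the neural crest onward, and Foxd3 acts in the neural crest and in early glial precursors. Erbb3 is the receptor through which Schwann cells read neuregulin from axons, pairing with Erbb2 to signal, and Ngfr is the p75 neurotrophin receptor of immature and injured Schwann cells. Cdh19 is a cadherin of Schwann cell precursors, S100b a calcium-binding protein of mature glia, and Mbp a structural protein of compact myelin. Several are not private to glia. S100b is also made by chondrocytes and adipocytes, Ngfr by neurons and mesenchymal cells, and Erbb3 by epithelial cells.

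Library totals ran from 18120745 to 34971537 counts, and a count of 0 allowed a level of up to 3 counts, or 0.0923 to 0.171 CPM, counting error only. Levels are given as CPM, read counts scaled to library size with factors from the trimmed mean of M-values (TMM), with n = 4 per group. Adjusted p-values are those of edgeR (quasi-likelihood, Benjamini-Hochberg over 15049 genes). Whether libraries of 1 group were taken from different animals or cultures is unsaid in the labels, and the p-values therefore reflect only how far these samples spread, possibly for technical reasons. Ddx3y of the Y chromosome had 394 to 722 counts in the homeostasis libraries and at most 3 in any other library. Xist, which coats and silences an X chromosome, stood at 6.74 to 13.5 CPM in homeostasis and at 71.4 to 268 CPM in the other libraries. Every comparison against homeostasis is therefore also a comparison of libraries with and almost without Y-linked RNA, and the doxycycline course and this difference cannot be told apart.

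Promoter sequences are shown for the 3 members with an entry in the RefSeq promoter table. These 3 followed different courses: Foxd3 stayed low, S100b came back, and Ngfr lay between its inflammation and homeostasis levels in resolution. Any link between these sequences and the courses was not tested. Each runs 5′ to 3′ on the gene's strand, from 250 bases before the RefSeq start (build GRCm38.p6) to that start or, for Ngfr, to the first annotated exon. The stretches are chr4:99656049-99656298 on the plus strand for Foxd3, chr10:76253586-76253835 on the plus strand for S100b, and chr11:95587736-95587948 on the minus strand for Ngfr, which is 213 bases long because 37 bases in an exon are left out. Capitals mark matches to the motifs searched.
Foxd3: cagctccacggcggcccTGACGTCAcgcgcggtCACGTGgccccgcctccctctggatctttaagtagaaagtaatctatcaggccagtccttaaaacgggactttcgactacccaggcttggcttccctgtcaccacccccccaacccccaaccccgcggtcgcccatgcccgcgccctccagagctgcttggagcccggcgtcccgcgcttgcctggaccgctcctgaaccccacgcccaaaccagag
S100b: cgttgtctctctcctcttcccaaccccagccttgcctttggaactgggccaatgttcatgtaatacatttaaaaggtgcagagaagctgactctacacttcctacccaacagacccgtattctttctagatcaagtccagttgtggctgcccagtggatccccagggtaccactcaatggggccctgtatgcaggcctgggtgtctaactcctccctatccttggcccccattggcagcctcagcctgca
Ngfr: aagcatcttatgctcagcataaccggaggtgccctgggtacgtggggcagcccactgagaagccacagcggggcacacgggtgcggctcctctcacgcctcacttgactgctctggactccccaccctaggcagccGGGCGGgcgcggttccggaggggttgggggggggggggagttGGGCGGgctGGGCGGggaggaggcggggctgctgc
The Foxd3 stretch held TGACGTCA, the cAMP response element, which is in 1.55% of 32851 promoter windows of 250 bases, and CACGTG, an E-box, which is in 6.02% of them. The Ngfr stretch held GGGCGG, a GC box, 3 times, and 32.7% of windows hold it on either strand. These 3 motifs were chosen after the sequences were seen. ACAAAG and ACAATG, core letters bound by SOX proteins and searched on both strands, are in 16.5% and 10.7% of windows and were in none of the 3. The motifs do not overlap one another here.

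Sox10 (15:79154908 to 79165240, minus strand, protein-coding; all gene positions are from GENCODE M21 on GRCm38) fell in inflammation and stayed low in resolution. Its level was 12.2, 11.7, 10.9 and 14.2 CPM in homeostasis libraries 1 to 4, from 192 to 382 counts each. It was 4.02, 4.30, 3.57 and 3.58 CPM in inflammation and 3.24, 6.11, 4.22 and 3.69 CPM in resolution. No doxycycline library reached the lowest homeostasis library, and resolution 2 stood above the other 7. The log2 fold change was -1.66 ± 0.19 (SE) in inflammation (edgeR adjusted p = 2.00e-06) and -1.50 ± 0.19 in resolution (adjusted p = 2.93e-06), each against homeostasis. Between resolution and inflammation it was 0.16 ± 0.20, with a 95% interval of -0.26 to 0.58 (adjusted p = 0.601). Without resolution 2 that difference was -0.06. In bulk cultures fewer cells of a kind and less RNA in each cell cannot be told apart, and this holds for every gene below.

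Foxd3 (4:99656299 to 99658622, plus strand, protein-coding) was also lower in both doxycycline groups. It stood at 2.89, 1.72, 3.25 and 3.62 CPM in homeostasis, at 0.822, 1.60, 0.930 and 1.41 CPM in inflammation and at 0.772, 0.700, 0.726 and 1.39 CPM in resolution. The lowest homeostasis library, number 2, lay just above the highest inflammation library, and resolution 4 stood above the other resolution libraries. The log2 fold change was -1.25 ± 0.32 in inflammation (edgeR adjusted p = 0.00462) and -1.66 ± 0.33 in resolution (adjusted p = 0.000324). With homeostasis 3 and 4 both left out, an alternative added once the data had been seen, the inflammation value was -0.92 and did not pass (edgeR adjusted p = 0.0721). Resolution and inflammation differed by -0.41 ± 0.35 (interval -1.13 to 0.31, adjusted p = 0.419). The counts behind Foxd3 were low, 15 to 80 per library, and 89 bases of its exon are shared with the small predicted gene Gm23366, whose reads cannot be told apart where they fall there.

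Erbb3 (10:128567523 to 128589652, minus strand, protein-coding), the neuregulin receptor, fell in both doxycycline groups. It went from 7.96, 9.32, 8.14 and 9.01 CPM in homeostasis to 2.15, 2.50, 1.61 and 2.21 CPM in inflammation, and stood at 2.78, 3.78, 3.40 and 3.23 CPM in resolution. The 3 groups did not overlap, and resolution lay between the other two, nearer to inflammation. The log2 fold change was -2.02 ± 0.19 in inflammation (edgeR adjusted p = 1.22e-07) and -1.38 ± 0.18 in resolution (adjusted p = 4.38e-06). Erbb3 was higher in resolution than in inflammation by 0.64 ± 0.20 (adjusted p = 0.0328). This last call was lost without any 1 of the inflammation libraries 1, 2, 3 and 4 (edgeR adjusted p = 0.0803, 0.0505, 0.105 and 0.0517) and without resolution 3 or 4 (0.0878 for each), with log2 fold changes of 0.53 to 0.71. Upper-quartile scaling (0.0520), no filter on low counts (0.0805) and a fit of the 2 groups alone (0.0544) also ended it. The 7 markers of epithelial cells, which also make Erbb3, summed to 0.320 to 1.22 CPM over all libraries, and none of them passed the filter on low counts. Which cells made the Erbb3 RNA was not tested.

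Ngfr (11:95568818 to 95587735, minus strand, protein-coding), the p75 receptor, also fell in both. Its level was 38.7, 33.9, 34.6 and 44.6 CPM in homeostasis, 17.7, 18.0, 16.0 and 17.8 CPM in inflammation, and 26.2, 29.7, 18.1 and 20.5 CPM in resolution. Every library of resolution lay above every library of inflammation and below every library of homeostasis, although resolution 3 was above inflammation by little. The log2 fold change was -1.12 ± 0.16 in inflammation (edgeR adjusted p = 2.16e-05) and -0.68 ± 0.16 in resolution (adjusted p = 0.00134). The difference between resolution and inflammation, 0.44 ± 0.16 (interval 0.11 to 0.78), did not pass (adjusted p = 0.0658), and passed without resolution 3 (0.54, edgeR adjusted p = 0.0418). Of 14 neuronal markers, 3 were tested and 1, Tubb3, fell in both comparisons against homeostasis. Among all genes tested, 18.3% fell in inflammation and 25.8% in resolution. The neuronal markers had sums of 64.3 to 93.1 CPM in homeostasis, and of 44.5 to 61.2 and 48.5 to 66.0 CPM in the inflammation and resolution libraries. Their part in the Ngfr values was not tested. Of the 14, 5 had 0 counts in homeostasis, 5 in inflammation and 3 in resolution, Snap25 and Elavl3 in all 12 libraries. Rbfox3 had 19 counts over the resolution libraries and 0 elsewhere. Nefm averaged 4.53, 4.06 and 3.57 CPM, and Uchl1 34.7, 30.4 and 31.5 CPM.

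S100b (10:76253853 to 76261159, plus strand, protein-coding) fell in inflammation and stood at its homeostasis level again in resolution. It was at 3.91, 4.83, 5.75 and 4.03 CPM in homeostasis, 0.959, 1.23, 1.32 and 1.19 CPM in inflammation, and 5.15, 3.50, 3.67 and 5.54 CPM in resolution. The inflammation libraries lay apart from the other 8, which were mixed. The log2 fold change was -1.97 ± 0.24 in inflammation (edgeR adjusted p = 2.67e-06), 1.92 ± 0.24 in resolution against inflammation (adjusted p = 1.09e-05) and -0.05 ± 0.21 in resolution against homeostasis (interval -0.50 to 0.39, adjusted p = 0.858). Of 7 tested chondrocyte markers 5 fell and 0 rose in inflammation. The sum of all 12 went from 868 to 1123 CPM in homeostasis to 37.0 to 45.5 in inflammation and 63.9 to 95.4 in resolution. Acan had 515 counts over the homeostasis libraries and 6 over the inflammation libraries, and Hapln1 had 106 and 10. Genes this low in inflammation passed the filter on low counts through other groups, so a rise could hardly be called for them there. In resolution 5 of the 7 tested fell and 1 rose against homeostasis. Between resolution and inflammation 1 rose and 0 fell, where 8.52% of all genes tested rose and 7.64% fell. Col2a1, the defining cartilage collagen, did not come back, with means of 827, 2.62 and 2.72 CPM in the 3 groups. Of 6 tested adipocyte markers 5 fell and 1 rose in inflammation, and 3 fell and 1 rose in resolution. Among all genes tested, 18.3% fell and 19.0% rose in inflammation, and 25.8% fell and 27.5% rose in resolution. The summed adipocyte markers went up from 101 to 197 CPM in homeostasis to 199 to 237 and then 254 to 340 CPM. Within that sum, Lpl went from a mean of 29.9 CPM in homeostasis to 150 CPM in inflammation, and Fabp4 from 92.6 to 60.4 CPM. Adipoq, the defining adipocyte hormone, had 80 counts over the homeostasis libraries, 0 over the inflammation libraries and 14 over the resolution libraries. Cfd had 377 counts over the homeostasis and 7 over the inflammation libraries. Adipoq and Cfd, too, passed the filter through groups other than inflammation. The part of these cell types in the S100b values was not tested.

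Cdh19 (1:110888326 to 110977584, minus strand, protein-coding) was the one member that was higher in resolution than in homeostasis. It stood at 5.17, 3.17, 2.33 and 3.03 CPM in homeostasis, 2.88, 3.40, 2.06 and 1.68 CPM in inflammation, and 4.74, 4.48, 7.89 and 5.50 CPM in resolution. Resolution lay above all of inflammation, and homeostasis overlapped resolution through its library 1 and inflammation through its libraries 2, 3 and 4. Cdh19 rose by 1.17 ± 0.27 on the log2 scale from inflammation to resolution (edgeR adjusted p = 0.00638). The log2 fold change was -0.45 ± 0.28 in inflammation against homeostasis (interval -1.03 to 0.13, adjusted p = 0.215) and 0.72 ± 0.27 in resolution (adjusted p = 0.0282). The latter did not pass without homeostasis 2, 3 or 4 (edgeR adjusted p = 0.0572, 0.0916 and 0.0623) or without resolution 3 (0.131), and with homeostasis 3 and 4 both left out it was 0.44 (0.239).

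Mbp, on chromosome 18, was near the limit of detection. Its counts were 6, 29, 5 and 5 in homeostasis, 10, 12, 6 and 10 in inflammation, and 0, 8, 7 and 2 in resolution. These are 0.226 to 0.892, 0.294 to 0.491 and 0 to 0.373 CPM. The groups overlapped, and homeostasis 2 stood above the rest. Fitted without the filter on low counts, Mbp had log2 fold changes of -0.08, -1.15 and -1.07 in inflammation and resolution against homeostasis and in resolution against inflammation, and none passed (edgeR adjusted p = 1, 0.198 and 0.352), so a change was not detectable at this depth. Mag, a myelin-associated adhesion protein, was also low, averaging 0.19, 0.45 and 0.18 CPM in the 3 groups. Col1a1, a collagen of the labelled fibroblasts, averaged 9552, 8143 and 3116 CPM in the same libraries.

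**Figure D1:**
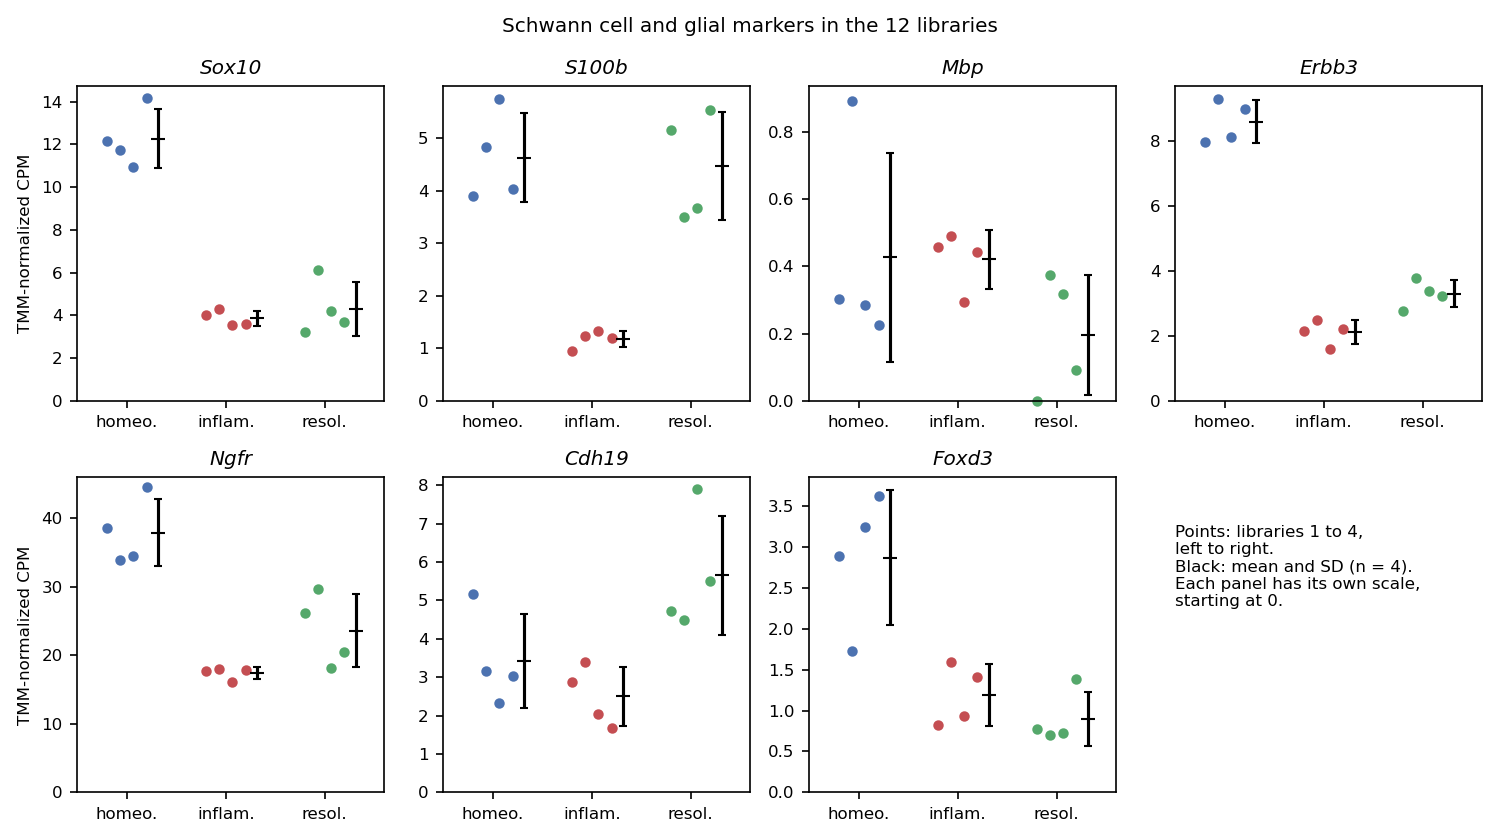
TMM-normalized CPM (vertical axis, 1 scale per gene from 0) of each of the 7 markers in the 12 libraries, by group. Points are libraries and the black bar is the mean with its SD (n = 4). Sox10, Erbb3 and Foxd3 stay low in resolution, whereas S100b is at 3.50 to 5.54 CPM there against 3.91 to 5.75 in homeostasis.

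Counted together, 5 of the 6 tested members fell in inflammation and 0 rose, where 18.3% of all genes tested fell, 19.0% rose and 37.2% were called in either direction. In resolution against homeostasis 4 members fell and 1 rose, where 25.8% of all genes fell, 27.5% rose and 53.3% were called in all. Between resolution and inflammation 3 rose and 0 fell, where 8.52% of all genes rose, 7.64% fell and 16.2% were called in all. The median log2 fold change of the 6 was -1.46, -1.03 and 0.54 in these comparisons, and that of all genes tested was -0.01, -0.01 and 0.02. In inflammation 5 members lay wholly below homeostasis and 0 wholly above, where 17.3% and 18.1% of all genes did, 35.4% in all. In resolution 4 lay wholly below homeostasis and 0 wholly above, where 21.6% and 21.9% of all genes did, 43.5% in all. In 4 members resolution lay wholly above inflammation and in 0 wholly below, where 8.94% and 9.91% of all genes did, 18.9% in all. Inflammation and resolution share their homeostasis libraries, so their values are set side by side and not as independent results. Sox10, Foxd3, Erbb3 and Ngfr fell in both, S100b fell in inflammation and did not pass in resolution, and Cdh19 rose in resolution and did not pass in inflammation. The summed level of the 7 ran from 65.2 to 78.6 CPM in homeostasis, and from 25.8 to 31.5 and 38.3 to 48.6 CPM in the inflammation and resolution libraries. Ngfr, which is not private to glia, was the largest part of it, at 37.9, 17.4 and 23.6 CPM of mean sums of 70.1, 28.7 and 42.5 CPM.

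**Figure D2:**
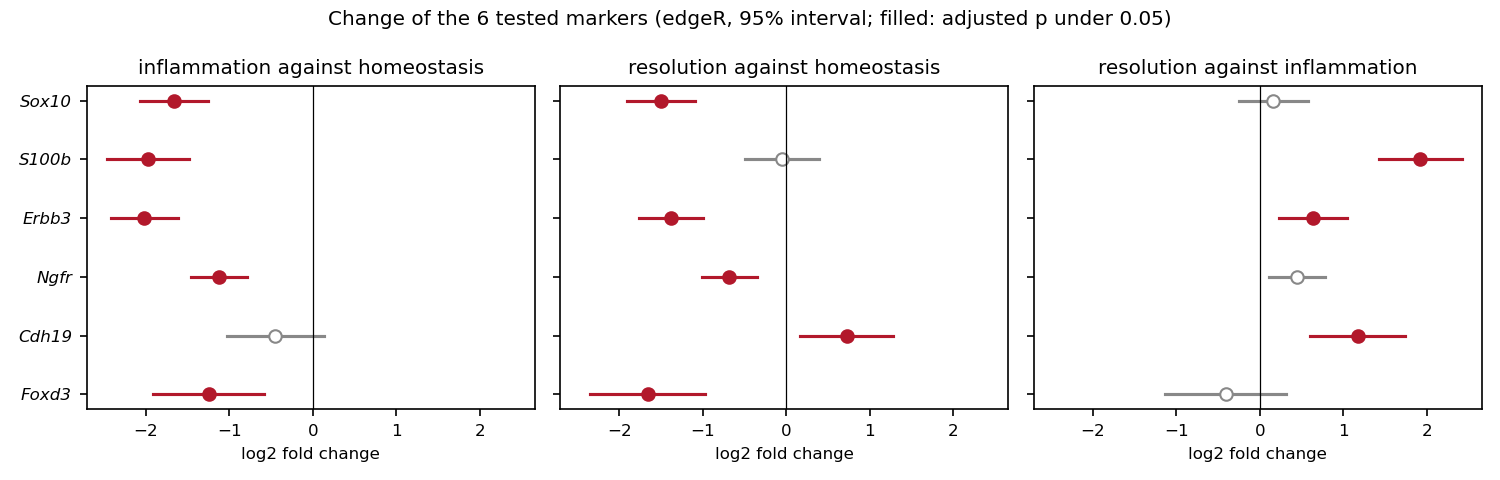
Log2 fold change (horizontal axis) of the 6 tested markers in the 3 comparisons, with 95% intervals from edgeR. Filled points passed at an adjusted p under 0.05. In the right panel S100b and Cdh19 lie at 1.92 and 1.17, while Sox10 and Foxd3 lie at 0.16 and -0.41.

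Per kilobase of exon, Ngfr was the highest member in every group. In homeostasis it stood at 11.0 ± 1.42 CPM per kilobase (mean ± SD, n = 4), followed by Sox10 at 4.02 ± 0.451 and S100b at 3.12 ± 0.574, whose libraries overlapped. Erbb3 (1.43 ± 0.109), Foxd3 (1.24 ± 0.353) and Cdh19 (0.801 ± 0.285 CPM per kilobase) came next, below S100b in all libraries and each overlapping the next of these 3, and Mbp (0.0504 ± 0.0368) was last. In resolution S100b was second at 3.01 ± 0.694 CPM per kilobase, above every Sox10 value (1.42 ± 0.414). Cdh19 (1.32 ± 0.363) overlapped Sox10 there, while Foxd3 had gone down to 0.386 ± 0.141. Exon lengths are those of all annotated transcripts merged, so a gene with long unused exons is understated on this scale.

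Markers were also set against Sox10 within each library, as counts per Sox10 count, and none of 15 comparisons of these ratios passed after adjustment. S100b had 0.284 to 0.526 counts per Sox10 count in homeostasis, 0.239 to 0.370 in inflammation and 0.573 to 1.59 in resolution. Cdh19 had 0.214 to 0.425, 0.469 to 0.790 and 0.733 to 1.87 counts per Sox10 count, with homeostasis below both other groups. Ngfr had 2.89 to 3.17, 4.20 to 4.99 and 4.29 to 8.08, and Erbb3 0.636 to 0.793, 0.452 to 0.617 and 0.618 to 0.875. Foxd3 per Sox10 count ran from 0.147 to 0.297, from 0.205 to 0.395 and from 0.115 to 0.375, and these ranges overlapped throughout. Against homeostasis, the ratio in resolution was 2.79 times higher for S100b, 4.88 times for Cdh19 and 1.79 times for Ngfr, each without overlap. Each had p = 0.0286 in a two-sided exact permutation test, which is the smallest that 4 against 4 libraries can give, and 0.0536 after Benjamini-Hochberg adjustment over 15 ratios. That adjusted value was set by this floor and by how many ratios reached it. Not passing therefore does not show that a ratio was unchanged. Erbb3 per Sox10 count differed there by a factor of 1.11 (exact p = 0.286, adjusted 0.306). It was 0.770 times its homeostasis value in inflammation and 1.44 times its inflammation value in resolution, both without overlap (exact p = 0.0286, adjusted 0.0536 for each). Foxd3 differed between resolution and homeostasis by a factor of 0.903 (exact p = 0.743, adjusted 0.743).

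**Figure D3:**
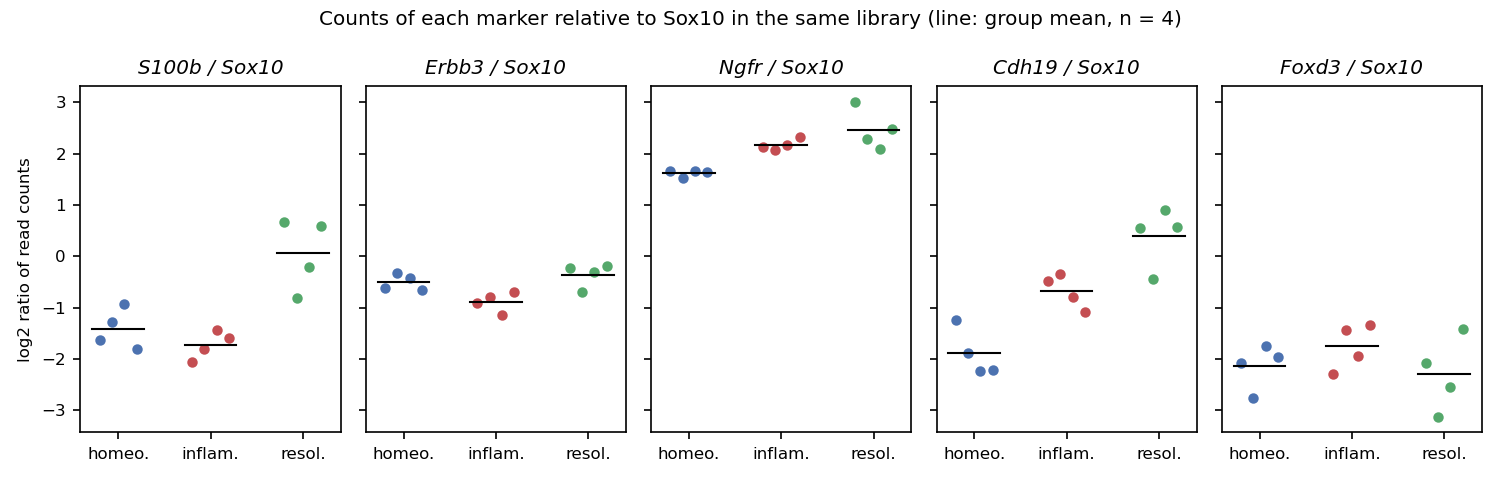
Log2 ratio of each marker's read count to the Sox10 count of the same library (vertical axis), by group, with 1 point per library and a line at the group mean (n = 4). S100b and Cdh19 have group means of 0.06 and 0.39 in resolution and of -1.42 and -1.89 in homeostasis. These differences had the smallest p that the exact test can give and did not pass after adjustment. Foxd3 overlaps across the groups.

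Over the 12 libraries the log2 CPM of Sox10 ran with that of Erbb3 (Pearson r = 0.95), Ngfr (0.90) and Foxd3 (0.79), less with S100b (0.49) and not with Cdh19 (-0.04). These are descriptions, since the points share groups and libraries. Among all 15048 other genes tested, Erbb3 ranked number 31 in likeness to Sox10. The 8 non-member genes most like Sox10 were Foxc2, Trpv4, LOC105246279, Slc29a1, Thbs4, Ezr, Pcbp2 and Atf4, with r of 0.97 to 0.98. Foxc2, a forkhead factor of mesenchyme, went from 19.0 ± 2.35 CPM to 7.97 ± 0.711 and 7.69 ± 1.69, and Trpv4, a calcium channel, from 17.0 ± 3.27 to 6.00 ± 0.625 and 6.93 ± 1.82 CPM. None of the 8 stands on the glial lists. With each group's mean removed, Erbb3 and Ngfr had r of 0.66 and 0.51 with Sox10, ranking 866 and 2114 of the 15048 genes, whereas S100b ran against it (-0.73) and Foxd3 and Cdh19 lay at -0.08 and 0.15. The genes most like Sox10 within groups were Dhx37, Carm1, Nr1d1, Nprl3, Plekhg2, Bmp1, Mdga1 and Samd1 (r of 0.92 to 0.97), none of them on the glial lists.

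Myelin genes moved in both directions. Of 16 proteins and lipid enzymes of myelin, 7 were tested, of which 2 rose and 3 fell in inflammation, 2 rose and 2 fell in resolution, each against homeostasis, and 2 rose between inflammation and resolution. Over all genes tested, 19.0% rose and 18.3% fell in inflammation, 27.5% and 25.8% in resolution, and 8.52% and 7.64% between them. Calls in both directions are therefore usual in these data, for this list and for those below. The list's median log2 fold change was -0.33, 0.15 and -0.02. Pmp22, a myelin protein that fibroblasts also make, stayed low, at 62.5 ± 7.08, 37.2 ± 4.18 and 35.6 ± 3.74 CPM. Gldn, the gliomedin of the node of Ranvier, rose throughout, from 10.5 ± 1.09 to 17.2 ± 1.72 and 32.2 ± 7.48 CPM (log2 fold change 1.62 ± 0.17 in resolution, adjusted p = 2.14e-07). Drp2, a dystrophin-related protein, rose in inflammation and resolution (0.70 and 0.67), calls lost without homeostasis 4 (edgeR adjusted p = 0.0663 and 0.0704) and, in inflammation, without inflammation 3 or 4 (0.0518 and 0.0623). The periaxin gene Prx fell in resolution (-0.66 ± 0.19), a call lost with homeostasis 3 and 4 left out (0.117).

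Transcription factors of Schwann cells and the neural crest also split. Of 19 listed, 14 were tested, of which 3 rose and 5 fell in inflammation, 3 rose and 5 fell in resolution, and 4 rose and 1 fell between them. Over all genes tested, 37.2%, 53.3% and 16.2% were called in these comparisons. The list's median was -0.26, 0.11 and 0.41 on the log2 scale. Tfap2a, a neural crest factor, went from 2.57 ± 0.577 to 0.874 ± 0.220 CPM in inflammation (-1.56 ± 0.29, edgeR adjusted p = 0.000362). Sox9, of neural crest and cartilage, fell by 0.99 and Ets1 by 0.80 in inflammation. Jun, which drives the repair state of injured Schwann cells and is broadly expressed, fell by 0.64 in inflammation and by 1.05 in resolution. Zeb2, needed for Schwann cell differentiation and also made by mesenchyme, rose from 44.9 ± 5.82 CPM to 143 ± 45.8 in resolution (1.67 ± 0.21, adjusted p = 1.92e-06), as did Nab1 (0.93) and Id2 (0.68), an inhibitor of myelin genes. Ets1 was higher in resolution than in inflammation by 0.54, which did not pass without inflammation 1 (edgeR adjusted p = 0.0598) or resolution 4 (0.0797). The rises of Yy1 (0.50) and Id2 (0.46) in that comparison failed without inflammation 1, 2 or 3 or resolution 1, 3 or 4 (adjusted p = 0.0746 to 0.128 and 0.0512 to 0.126), and in the fit blocked on replicate number (0.0662 and 0.0637). The Id2 rise also failed with upper-quartile scaling (edgeR adjusted p = 0.0564) and with no filter on low counts (0.102). Sox2, Pou3f1 and Pou3f2, factors of immature and promyelinating Schwann cells, averaged at most 0.80 CPM in any group. Egr2, the factor that drives myelination, averaged 7.55, 6.17 and 8.53 CPM in the 3 groups and did not pass in any comparison (edgeR adjusted p = 0.368, 0.570 and 0.196).

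On the receptor side, Erbb2, the partner of Erbb3, fell in resolution, while Nrg1, the gene of a ligand of Erbb3, rose. Of 14 neuregulin and ErbB genes 9 were tested. In inflammation 1 rose and 1 fell, in resolution 1 rose and 3 fell, and between them 0 rose and 2 fell, with list medians of -0.07, 0.03 and -0.09. The shares called over all genes tested were 37.2%, 53.3% and 16.2%. Nrg1 was at 18.9 ± 2.90, 24.8 ± 1.57 and 32.2 ± 3.44 CPM in the 3 groups (log2 fold change 0.77 ± 0.15 in resolution, edgeR adjusted p = 0.000191), and Erbb2 at 73.7 ± 12.6, 58.1 ± 2.83 and 42.2 ± 7.88 CPM (-0.80 ± 0.15, adjusted p = 0.000174). Hbegf, an EGF receptor ligand, and Errfi1, an inhibitor of ErbB kinases, fell in resolution by 0.67 and 0.68. The smaller inflammation calls of Nrg1 (0.39) and Errfi1 (-0.39) were lost without several single libraries, homeostasis 1, 3 or 4 and inflammation 1 or 3 for Nrg1 (edgeR adjusted p = 0.0595 to 0.115), and homeostasis 2 or 3 and inflammation 1, 2 or 3 for Errfi1 (0.0623 to 0.124). The Nrg1 call was also lost with no filter on low counts (edgeR adjusted p = 0.103). That of Errfi1 was lost with upper-quartile scaling (0.0643) and in a fit of the 2 groups alone (0.0517). The fall of Erbb2 from inflammation to resolution (-0.46) was lost without any inflammation library and without resolution 1, 3 or 4 (0.0507 to 0.118), and with the replicate block (0.0708).

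Of 20 neurotrophin and GDNF family genes and partners of the p75 receptor, 17 were tested. In inflammation 3 rose and 3 fell, in resolution 3 rose and 5 fell, and between them 1 rose and 2 fell, with medians of -0.20, -0.19 and 0.15. The shares called over all genes tested, 37.2%, 53.3% and 16.2%, stand beside these counts. Bdnf, a ligand of Ngfr, rose from 25.2 ± 3.04 to 40.3 ± 1.70 and 49.0 ± 3.02 CPM (0.96 ± 0.13 in resolution, adjusted p = 4.76e-06). Sorcs2, a co-receptor for neurotrophin precursors, fell in resolution from 29.7 ± 3.05 to 10.0 ± 1.06 CPM (-1.57 ± 0.15, adjusted p = 5.44e-08), and Lingo1, which joins Ngfr in a growth-inhibiting receptor complex, rose by 1.16 ± 0.16. Of the GDNF receptors, Gfra1 fell by 1.36 in inflammation and by 1.37 in resolution, and Gfra2 rose by 1.72 in inflammation. Ret, their signalling partner, rose by 0.61 between inflammation and resolution, and Maged1, which binds Ngfr inside the cell, fell there by 0.44, a call lost without inflammation 1 or 2 or resolution 3 or 4 (edgeR adjusted p = 0.0535 to 0.0814).

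Cell surface and non-myelinating Schwann cell genes were 17 tested of 20. Of them 2 rose and 5 fell in inflammation, 5 rose and 8 fell in resolution, and 4 rose and 3 fell between them, with medians of -0.25, -0.39 and 0.07. Over all genes tested, 37.2%, 53.3% and 16.2% were called in these comparisons. L1cam, an adhesion molecule of axons and non-myelinating Schwann cells, went from 15.7 ± 2.95 CPM to 5.35 ± 0.987 and 5.99 ± 1.25, the course of Sox10 (log2 fold change -1.55 ± 0.20 and -1.39 ± 0.19, edgeR adjusted p = 4.93e-06 and 7.71e-06). Gpr126 (now Adgrg6), the receptor that starts myelination, went from 9.80 ± 2.29 to 3.62 ± 0.888 and 3.79 ± 0.782 CPM, and Cadm4, a Schwann cell adhesion molecule, from 26.3 ± 3.37 to 13.2 ± 2.67 and 13.2 ± 0.825 CPM. Col28a1, a collagen of peripheral nerve, went from 7.28 ± 2.92 to 2.45 ± 0.231 and back to 5.40 ± 1.35 CPM, rising by 1.14 ± 0.26 from inflammation to resolution (adjusted p = 0.00610). Cadm2, another adhesion molecule of the family, rose from 1.72 ± 0.567 to 3.75 ± 0.920 and 7.44 ± 0.850 CPM. Itgb8 rose and Gap43 fell from inflammation to resolution (1.10 and -1.39), calls lost without inflammation 1, resolution 1 or resolution 3 (edgeR adjusted p = 0.0528 to 0.0623 and 0.0501 to 0.0597).

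**Figure D4:**
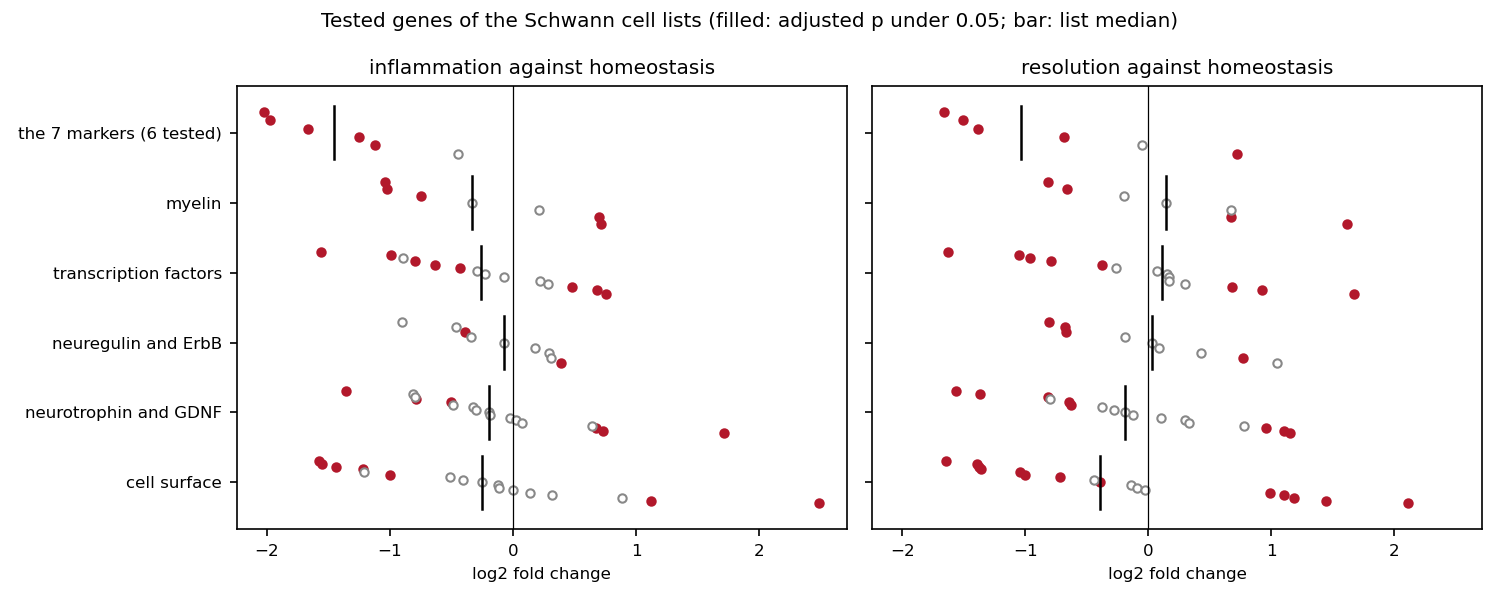
Log2 fold change against homeostasis (horizontal axis) of each tested gene of the 7 markers and of 5 other Schwann cell lists, in inflammation (left) and resolution (right). Filled points passed at an adjusted p under 0.05 and the bar is the list median. The medians of the 6 tested markers, -1.46 and -1.03, lie below those of the other lists, which run from -0.33 to -0.07 and from -0.39 to 0.15.

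Markers of other cell types, of the neural crest, of nerves and of other tissues, were also counted. Of 10 melanocyte markers 2 were tested, and 1, Mitf, rose in both doxycycline groups, while the summed level ran from 5.38 to 6.49, 9.09 to 10.1 and 8.91 to 16.2 CPM. Within that sum Mitf averaged 3.56, 7.28 and 11.1 CPM. Pmel, the other gene tested, averaged 1.40, 1.82 and 1.59 CPM and was not called against homeostasis. The pigment genes Tyr and Dct each had 2 counts over the inflammation libraries and 0 over the others. Of 7 perineurial markers 3 were tested, and 1 fell in resolution. Their sums were 299 to 455, 296 to 320 and 241 to 280 CPM, of which Slc2a1 averaged 297, 235 and 175 CPM. Of 10 markers of oligodendrocytes and astrocytes 3 were tested, and 1, Aldh1l1, rose in both, with Slc1a3 at 6.06, 7.23 and 5.04 CPM and Olig2 and Aqp4 at 0 counts in all 12 libraries. The sums of these 10 were 35.6 to 37.7, 64.1 to 75.9 and 49.2 to 75.6 CPM, of which Aldh1l1 averaged 29.7, 62.4 and 53.1 CPM. Markers of fibroblasts and synoviocytes, the labelled cells, were all 12 tested, of which 2 rose and 5 fell in inflammation and 2 rose and 8 fell in resolution. Their sums were 29785 to 32140 CPM in homeostasis, 22188 to 25695 in inflammation and 11457 to 17034 in resolution. Of 12 macrophage markers 12 rose in inflammation, and 7 fell and 0 rose in resolution. Here too a gene low in a group could pass the filter through another, as Ptprc did with 44 counts over the homeostasis and 310 over the inflammation libraries. Of 8 tested endothelial markers 1 rose and 3 fell in inflammation, and 2 rose and 3 fell in resolution. Of 7 tested skeletal muscle markers 6 fell and 1 rose in inflammation, and 6 fell in resolution. Among all genes tested, 18.3% fell and 19.0% rose in inflammation, and 25.8% fell and 27.5% rose in resolution. The summed macrophage markers ran from 115 to 154, 647 to 712 and 63.3 to 71.4 CPM in homeostasis, inflammation and resolution. The endothelial sums were 21.5 to 27.4, 13.5 to 23.6 and 17.3 to 22.6 CPM, and the skeletal muscle sums 45.7 to 59.6, 62.7 to 93.5 and 27.3 to 41.1 CPM. Within the muscle sum, Acta1 went from a mean of 25.2 CPM in homeostasis to 68.4 CPM in inflammation, against the 6 that fell. Sox9 stands on both the transcription factor and the chondrocyte list. The part of these cells in the values of the glial markers was not tested.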

How the data were processed

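The authors deposited 1 table of expected counts (total read counts per the file headers), unnormalized, with a row for each gene symbol. The submitters' processing notes name build GRCm38.p3. No source used here gives the aligner, counting tool or strand setting, so reads shared by overlapping genes are uncertain. Per the labels' protocols, libraries were poly(A)-enriched and sequenced as paired reads of 150 bases. Columns were tied to samples through their names. Of 36930 rows, 13 held no value, and 42 repeats over 34 symbols were summed. Fractions (1.43% of values) were rounded.

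Genes were filtered with filterByExpr, scaled by TMM and fitted with edgeR 4.0.16 (robust quasi-likelihood, group as the only term, all 12 libraries, threshold 0.05). The fit was tested on simulated data. Alternatives were other scalings, no filter, DESeq2 1.42.0, 2 groups alone, a replicate block and leaving out libraries. Within groups the reduced chi-square of library pairs was 10.2 to 114, so no pair agreed within sampling noise.

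Whether replicate numbers pair libraries was checked from the deviations of same-numbered libraries from their group means. In resolution against inflammation all 4 correlations were over 0.1 (0.126 to 0.214), although resolution 2 correlated more with inflammation 1 (0.200). There the numbers may pair the libraries, which is read from the data and not the labels. Over the 3 comparisons, 3 of 12 libraries correlated best with their own number. The differently numbered resolution 2 and homeostasis 4 reached 0.355, above every same-numbered pair, so a pairing is not established. Against homeostasis they ran from -0.228 to 0.0802 and the numbers pair nothing. The fit without the block remained the one reported.

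The members and lists were chosen with earlier results of these data known. Of 208 list symbols, 203 were found as written and 5 under an older symbol (RefSeq table, GRCm38.p6). From each Schwann cell list, up to 4 called genes per comparison with the smallest adjusted p were named, along with the 8 genes most like Sox10 by Pearson r of log2 CPM (prior count 2). Other genes outside the members were named after their values were seen. Some genes that this rule selects are not reported here. Promoters were credited to RefSeq.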

Additional observations from a re-analysis of the deposited data

Results flagged for a closer look

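Samples that stood apart within a group of 4 were sought by the gap to the nearest library divided by the group's range, with Dixon's 95% limit, over 141 groups of named genes. Chance alone would mark about 7.05 of these, and 9 were marked. Among the markers, Mbp in homeostasis 2 stood at 0.892 CPM, against 0.226 to 0.304 in the other homeostasis libraries, and Foxd3 in resolution 4 at 1.39 CPM, against 0.700 to 0.772. In resolution 2, Slc29a1 (122 CPM, others 88.7 to 91.7), Thbs4 (142 CPM, others 94.8 to 102), Ezr (48.6 CPM, others 33.7 to 36.2) and Erbb2 (54.0 CPM, others 37.3 to 39.6) stood above the rest of the group. Nrg1 in resolution 1 was low (27.0 CPM, others 33.4 to 34.4), as was Nab1 in homeostasis 4 (30.4 CPM, others 39.0 to 40.2), and Atf4 in inflammation 1 was high (147 CPM, others 131 to 133).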

How the results depend on the processing

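Of the 7 markers, 5 fell in inflammation under every one of 20 alternatives except with homeostasis 3 and 4 both left out (4). Sox10, Erbb3, Ngfr and S100b kept that call under all 20, and Sox10, Erbb3, Ngfr and Foxd3 kept theirs in resolution. Leaving out single libraries gave 4 to 5 called markers in resolution and 2 to 3 between resolution and inflammation. S100b in resolution against homeostasis, which did not pass, changed sign without homeostasis 3 (0.0587), resolution 2 (0.0471) or resolution 3 (0.0440), in a range of -0.171 to 0.0587 over the libraries left out, and with homeostasis 3 and 4 left out (0.0137), and so did Sox10 between resolution and inflammation without resolution 2 (-0.0568, in a range of -0.0568 to 0.262). The number of genes called between resolution and inflammation, 2431, ran from 1242 to 4191 over the libraries left out: it fell by over 1.5 times without inflammation 1 or 2 (1443 and 1351) or resolution 1, 3 or 4 (1584, 1299 and 1242), and rose without resolution 2 (4191). The cause was not tested. Other named genes gave 1380 values under the alternatives, of which 61 lost the call and 0 reversed. The replicate block gave 5, 5 and 3 called markers, as without it, and 5053, 7589 and 1898 called genes against 5602, 8025 and 2431. Among named genes it ended the calls of Yy1, Id2 and Erbb2 between resolution and inflammation and no other call. Foxd3 rested on 15 to 80 counts per library, and Mbp on 0 to 29.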
